A study of Mus musculus with 12 samples.

Results

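The subject here is the difference between JNK WT and JNK KO mouse mammary glands in how each mRNA changed from lactation to the third day of involution. For each gene the change in JNK WT glands (day 3 minus day 0) was subtracted from the change in JNK KO glands, on a log2 scale, and this difference of differences is called the interaction. A value below 0 means that the day 3 level, relative to the same genotype's day 0, was lower in JNK KO glands, and a value above 0 that it was higher. All 12 RNA-seq libraries of the series enter it, 3 for each of 4 groups, and of 37754 gene models with values 14512 had at least 0.5 FPKM (fragments per kilobase of exon, scaled to the mapped fragments of the library) in at least 3 libraries and were tested. The control mice, called JNK WT, were C57BL/6 females with the Wap-Cre transgene alone, and the JNK KO mice carried Wap-Cre with LoxP-flanked Mapk8 (encodes JNK1) and Mapk9 (encodes JNK2) on both alleles. Both genotypes therefore carry Cre. Dams had nursed for 9 days when the pups were removed, and glands were taken at that time (day 0) or 3 days later (day 3). The Wap promoter drives Cre in the milk-secreting epithelium, so stromal, fat and immune cells of the JNK KO gland keep both genes.

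Weaning stops milk removal, and within days the secretory cells switch off milk protein genes, detach and die, while proteases open the matrix, phagocytes clear debris and fat cells refill. LIF acting through STAT3 drives the first, reversible phase, and prolactin acting through STAT5 maintains secretion before it. JNK is a stress-activated kinase that phosphorylates AP1 transcription factors such as JUN and ATF proteins. With samples on 2 days only, a slower course of the same program and a lasting change of it cannot be told apart by time, so the question addressed here is how much of the JNK WT change was present in JNK KO glands, gene by gene, and which genes departed from a common share.

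Milk protein mRNA dominated the day 0 libraries and affects how deposited FPKM compare between days. A set of 17 milk protein genes held 80.4% to 87.5% of the summed FPKM of gene models of at least 200 bases in all 6 day 0 libraries. On day 3 they held 20.9%, 18.9% and 8.62% in JNK WT glands, against 57.1%, 34.1% and 36.2% in JNK KO glands, so the groups did not overlap (exact two-sided permutation test, p = 0.1, the smallest that 3 against 3 allows). FPKM are relative to the mapped fragments of a library, so a fall of milk mRNA raises the FPKM of genes whose own mRNA is unchanged. Each library was therefore also divided by a factor, the median over genes of its ratio to the gene's geometric mean. These size factors were 0.305 to 0.581 on day 0, 2.36 to 2.81 in JNK WT glands on day 3 and 1.40 to 2.07 in JNK KO glands on day 3. Values after this division are called scaled. Library numbers are those of the deposited columns, and 2 JNK WT libraries stood apart. Day 0 library 1 correlated with its group at 0.846 to 0.855 across genes, against 0.914 or more within every group once it was set aside, and day 3 library 12 had the lowest milk share. JNK KO day 3 library 3 also lay apart from its group in milk share, at 57.1% against 34.1% and 36.2%. That library was left out only singly, so results without the 2 libraries rest on a choice among JNK WT libraries alone. The library labelled JNK KO day 0 library 3 was near the JNK WT level of both deleted genes, with Mapk8 at 2.78 FPKM, more than in any JNK WT library on day 0, and Mapk9 at 8.78 FPKM against 4.86 and 4.33 FPKM in the others of its group. Without it the count of genes called for the interaction was 3, both as deposited and after scaling (1 higher and 2 lower). In whole tissue, fewer cells of a type and less RNA per cell cannot be told apart.

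Few single genes had an interaction that passed the test. With limma and Benjamini-Hochberg adjustment over all 14512 genes, 1 gene was called higher (0.00689% of those tested) and 1 lower (0.00689%) at an adjusted p under 0.05, the same count before and after scaling. The deposited values placed the interaction of most genes below 0, with a median of -0.67 and 16.1% of genes above 0. After scaling the median was -0.00 and 49.9% were above 0, so the common downward shift is the part that one factor per library removes. At an unadjusted p under 0.05 there were 140 higher (0.965%) and 2565 lower genes (17.7%) as deposited, and 899 higher (6.19%) and 981 lower genes (6.76%) after scaling. Below, log2 values are after scaling unless stated, with the standard error of the limma fit, and a gene is said to rise or fall only where its change passed an adjusted p of 0.05. By that rule 2778 genes rose (19.1%) and 2375 fell (16.4%) in JNK WT glands, against 1633 (11.3%) and 1432 (9.87%) in JNK KO glands. As deposited 13280 rose (91.5%) and 194 fell (1.34%) in JNK WT glands, against 11606 (80%) and 199 (1.37%) in JNK KO glands. The count moved with the libraries and their weights. With array weights, a limma option that gives less weight to the libraries farthest from their group and whose estimation did not fully converge here, 250 genes were called higher and 395 lower after scaling. Without JNK WT day 0 library 1 and day 3 library 12, an alternative chosen after seeing the data, the counts were 33 and 131. Of these 164 genes 155 were among the 645 called with array weights. After scaling that day 0 library had a weight of 0.0594, against 0.821 and 1.45 in the others of its group. Day 3 library 12 had 0.689, against 2.97 and 3.34. The 2 settings are therefore alike, and part of the overlap is built in. Without day 3 library 12 alone, the count was 14 after scaling and 304 as deposited.

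**Figure D1:**
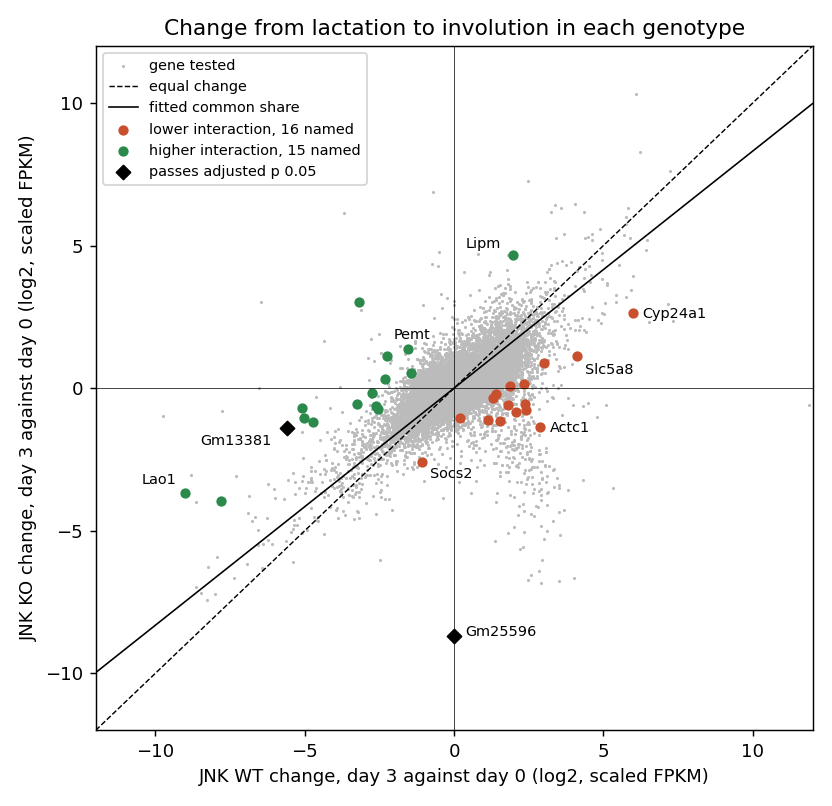
Change between the days in JNK WT glands (x axis) against JNK KO glands (y axis), log2 of scaled FPKM, 1 grey point per gene for 14512 genes. The solid line has the fitted slope of 0.831, the dashed line marks equal change, the 16 orange and 15 green genes are those named for a low or high interaction, and the 2 diamonds are the models that passed the test.

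Neither of the 2 called models is a protein-coding gene. Gm25596 is annotated by GENCODE as an snRNA of 107 bases on chromosome 10 (29349585 to 29349691, GRCm38), within the span of Rnf146, which lies on the other strand. It was listed at 14.6, 38.2 and 17.4 FPKM in JNK KO glands on day 0 and at 0 in the other 9 libraries. It met the filter only through those 3 libraries, so it had to differ, and its interaction of -8.69 (adjusted p = 3.31e-05) is a day 0 difference between genotypes whose size depends on the pseudocount. Gm13381 is an antisense transcript on chromosome 2 (28562197 to 28576698, plus strand) that overlaps the start of Cel and part of Gtf3c5, both on the minus strand. It was at 5.19, 4.61 and 5.69 FPKM in JNK WT glands on day 0 and 0.238, 0.297 and 0.606 FPKM on day 3, and at 2.87, 3.57 and 4.53 FPKM in JNK KO glands on day 0 and 4.90, 5.30 and 3.57 FPKM on day 3. It fell by 5.60 in JNK WT glands (adjusted p = 3.37e-06) and by 1.41 in JNK KO glands (adjusted p = 0.0122), an interaction of 4.19 ± 0.47 (adjusted p = 0.0165), and the 3 JNK KO libraries of day 3 were all above the 3 of JNK WT. Without JNK KO day 0 library 2, JNK WT day 3 library 3 or JNK WT day 3 library 6 its call was lost (adjusted p = 0.0824, 0.0612 and 0.0645). Whether the libraries keep strand is not given in the sources used here, so reads of Gm13381 and Cel cannot be told apart where they overlap. Cel is described next, and its interaction was of similar size.

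Among the genes named for a high interaction were Lao1, Olah, Cel and Lalba, which serve milk secretion and fell in JNK WT glands. None of the protein-coding genes named for a high interaction passed the adjusted test, with adjusted p from 0.0822 upward. Genes named for a high or low interaction, like Gm13381, were picked by their p in these data. Day 3 groups that do not overlap follow in part from that choice and are not added support. Lao1, an L-amino acid oxidase secreted into milk, was at 1024, 1927 and 2209 FPKM in JNK WT glands on day 0 and 35.5, 15.2 and 10.2 FPKM on day 3, and at 1651, 1958 and 1809 FPKM in JNK KO glands on day 0 and 874, 205 and 634 FPKM on day 3. JNK KO libraries of day 3 were all above those of JNK WT and below every day 0 library. Scaled levels fell by 9.02 in JNK WT and by 3.68 in JNK KO glands (adjusted p = 5.59e-06 and 0.00175), and the interaction was 5.34 ± 0.85 (adjusted p = 0.109). Olah, the thioesterase that releases medium-chain fatty acids for milk fat, was at 326, 493 and 355 FPKM in JNK WT glands on day 0 and 13.0, 13.8 and 4.70 FPKM on day 3, and at 270.1, 329 and 346 FPKM in JNK KO glands on day 0 and 64.1, 67.3 and 74.9 FPKM on day 3. Again the day 3 groups did not overlap, and the falls were 7.81 and 3.97, both passing (adjusted p = 3.19e-06 and 1.34e-04), with an interaction of 3.84 ± 0.59 (adjusted p = 0.109). Cel, the bile salt-stimulated lipase of milk, was at 171, 375 and 565 FPKM in JNK WT glands on day 0 and 97.4, 82.4 and 20.7 FPKM on day 3, and at 441, 477 and 409 FPKM in JNK KO glands on day 0 and 1021, 805 and 1003 FPKM on day 3. Its deposited JNK KO values were thus higher on day 3 than on day 0. After scaling Cel fell by 5.09 in JNK WT glands (adjusted p = 8.76e-05), the JNK KO change was -0.70 (adjusted p = 0.404) and the interaction was 4.39 ± 0.77 (adjusted p = 0.152). Lalba, the alpha-lactalbumin subunit of lactose synthase, was at 12692, 5897 and 6751 FPKM in JNK WT glands on day 0 and 1855, 1998 and 1371 FPKM on day 3, and at 6446, 6389 and 4547 FPKM in JNK KO glands on day 0 and 13339, 6606 and 7390.3 FPKM on day 3. The change was -4.72 in JNK WT glands (adjusted p = 2.63e-04) and -1.18 in JNK KO glands (adjusted p = 0.197), an interaction of 3.54 ± 0.86 (adjusted p = 0.224). JNK WT day 0 library 1, the one that stood apart, held the highest day 0 level of Lalba.

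Other genes named for a high interaction included transporters and membrane proteins. Of the 22 milk transport genes tested, described further on, 4 had an interaction below 0. Aqp3, a water and glycerol channel, was at 2.25, 1.84 and 4.29 FPKM in JNK WT glands on day 0 and 1.58, 0.948 and 1.56 FPKM on day 3, and at 3.39, 4.003 and 3.43 FPKM in JNK KO glands on day 0 and 6.92, 9.44 and 8.97 FPKM on day 3. Scaled levels fell by 3.25 in JNK WT glands (adjusted p = 1.90e-05), the JNK KO change was -0.55 (adjusted p = 0.182), and the interaction was 2.70 ± 0.39 (adjusted p = 0.0822). Slc30a2, the ZnT2 carrier that loads zinc into milk, was at 5.48, 8.19 and 8.73 FPKM in JNK WT glands on day 0 and 6.06, 7.13 and 7.69 FPKM on day 3, and at 12.3, 10.5 and 7.08 FPKM in JNK KO glands on day 0 and 18.2, 16.8 and 26.2 FPKM on day 3. Deposited levels in JNK WT glands were alike on both days, and the scaled falls were 2.54 and 0.73 (adjusted p = 3.55e-05 and 0.0483), an interaction of 1.81 ± 0.33 (adjusted p = 0.170). Tmem54, a membrane protein, had 2.57 ± 0.38 (adjusted p = 0.0822) and Liph, a phospholipase that makes lysophosphatidic acid, 1.97 ± 0.35 (adjusted p = 0.152). Defb1, an epithelial antimicrobial peptide, fell by 5.03 in JNK WT glands (adjusted p = 1.41e-05) and had an interaction of 3.997 ± 0.57 (adjusted p = 0.0822), with a JNK KO change of -1.03. Abhd5, the co-activator of the triglyceride lipase ATGL, fell by 2.31 in JNK WT glands (adjusted p = 0.00296), and its JNK KO change was 0.33 with an interaction of 2.64 ± 0.64 (adjusted p = 0.224). Without the 2 JNK WT libraries that stood apart, 8 of the 10 genes named for a high interaction after scaling passed the test. So did 5 of the 10 named for a low one. Adjusted p was 0.0150 for Olah, 0.0474 for Lao1, 0.0113 for Cel and 0.0413 for Aqp3. Lalba (0.0907), Abhd5 (0.0946) and Slc30a2 (0.0572) did not pass. These genes were picked by their p in the same data, and the libraries after seeing the data, so this is not independent support.

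**Figure D2:**
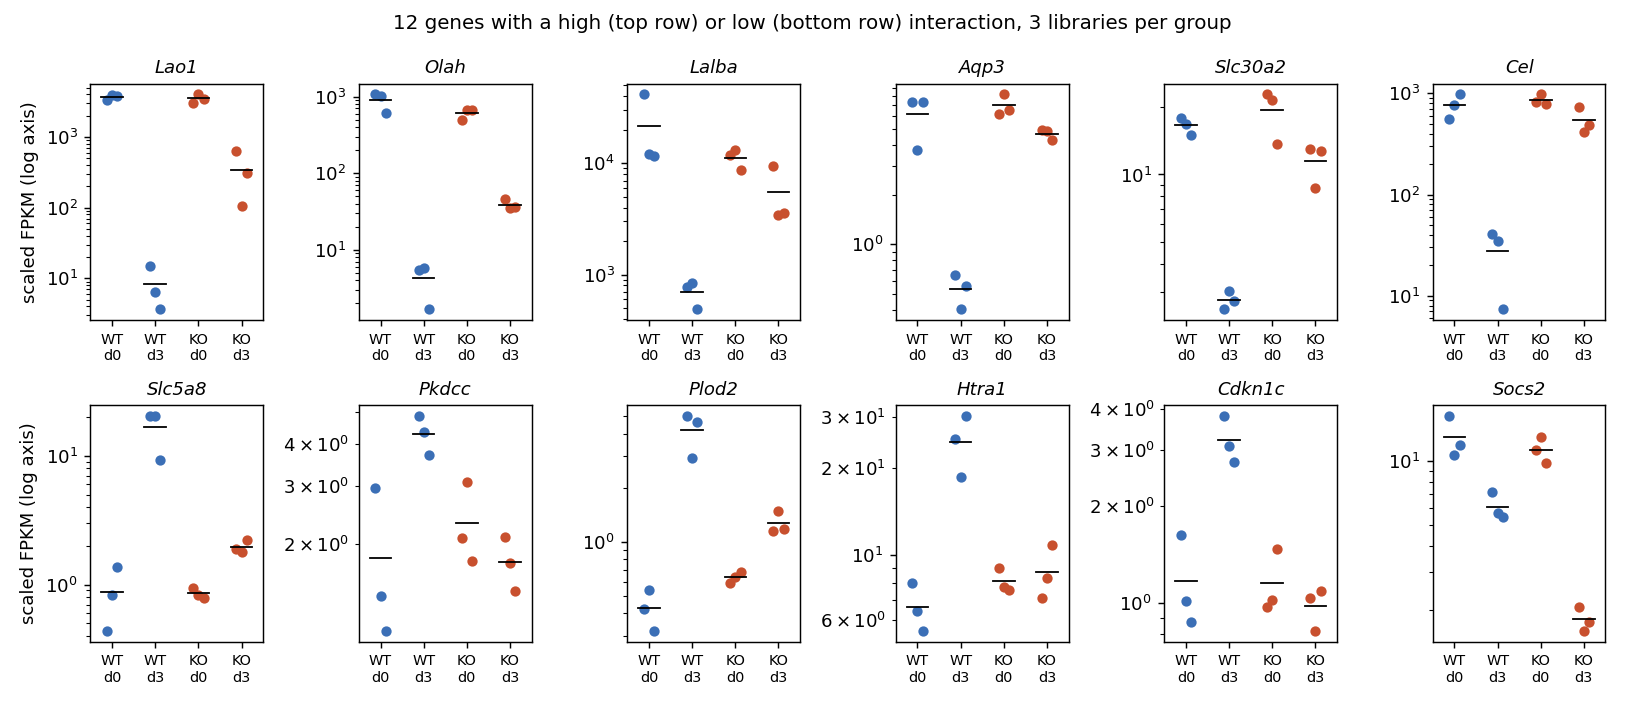
Scaled FPKM of 12 named genes in each library (points, log axis) with the group mean (line), JNK WT in blue and JNK KO in orange, on day 0 (d0) and day 3 (d3), 3 libraries per group. In each panel but that of Socs2 the day 3 JNK KO libraries lie nearer to their own day 0 than the JNK WT libraries do. The genes were named for a small interaction p in these same data.

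The promoters of these genes were read for the AP1 motif TGANTCA, which is the same on both strands, in RefSeq windows of 250 bases before to 50 after the start (GRCm38.p6). The motif is shown because some AP1 proteins are phosphorylated by JNK. It occurred in 3 of 13 genes named for a high interaction that have such a window, in 0 of 9 named for a low one, and in 8.97% of the 27025 genes with a window and 6.52% of the 9476 tested ones among them. Neither of the 2 called models has a window. A match is only a run of letters, and the sets are small. The 3 windows are on chromosome 4 (Lao1, 118961717 to 118962016, plus strand), chromosome 2 (Olah, 3366520 to 3366819, minus strand) and chromosome 4 (Tmem54, 129105280 to 129105579, plus strand, 1 of its 2 windows), and the motif, in capitals, begins 70, 115 and 21 bases before the start.
Lao1: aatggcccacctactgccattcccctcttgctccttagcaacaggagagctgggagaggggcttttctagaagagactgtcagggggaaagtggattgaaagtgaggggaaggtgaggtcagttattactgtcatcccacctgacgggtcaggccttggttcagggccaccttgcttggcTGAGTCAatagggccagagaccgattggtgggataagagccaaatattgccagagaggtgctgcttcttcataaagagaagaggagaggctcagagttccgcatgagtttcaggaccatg
Olah: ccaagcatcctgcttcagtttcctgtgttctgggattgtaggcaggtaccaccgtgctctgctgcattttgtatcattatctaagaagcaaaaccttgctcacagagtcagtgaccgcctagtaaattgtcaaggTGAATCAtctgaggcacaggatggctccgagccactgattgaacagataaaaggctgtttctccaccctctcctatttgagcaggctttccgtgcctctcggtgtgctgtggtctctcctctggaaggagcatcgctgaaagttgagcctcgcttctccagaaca
Tmem54: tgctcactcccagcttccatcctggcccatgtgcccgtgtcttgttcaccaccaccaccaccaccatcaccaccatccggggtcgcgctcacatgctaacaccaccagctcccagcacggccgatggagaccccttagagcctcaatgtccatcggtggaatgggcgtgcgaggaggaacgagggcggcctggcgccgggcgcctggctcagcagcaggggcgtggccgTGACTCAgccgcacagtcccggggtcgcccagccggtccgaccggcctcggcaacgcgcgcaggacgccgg

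At the other end were genes that rose in JNK WT glands and had a smaller or no rise in JNK KO glands. Slc5a8, a sodium-coupled carrier of short-chain fatty acids and lactate, was at 0.133, 0.409 and 0.792 FPKM in JNK WT glands on day 0 and 49.2, 48.0 and 26.1 FPKM on day 3, and at 0.513, 0.403 and 0.409 FPKM in JNK KO glands on day 0 and 2.65, 3.46 and 4.57 FPKM on day 3. It rose by 4.13 in JNK WT glands (adjusted p = 3.31e-05), the JNK KO change was 1.11 (adjusted p = 0.0592), and the interaction was -3.02 ± 0.54 (adjusted p = 0.152). Cyp24a1, the enzyme that inactivates vitamin D hormone, was at 0.0156, 0 and 0.00755 FPKM in JNK WT glands on day 0 and 20.0, 26.03 and 13.0 FPKM on day 3, and at 0.0455, 0.00694 and 0.0574 FPKM in JNK KO glands on day 0 and 0.645, 2.21 and 3.04 FPKM on day 3. The rises were 5.99 and 2.65 (adjusted p = 8.99e-06 and 0.00203), an interaction of -3.34 ± 0.63 (adjusted p = 0.170), and on day 3 every JNK WT library was above every JNK KO library. Plod2, a lysyl hydroxylase that prepares collagen for cross-linking, was at 0.129, 0.265 and 0.185 FPKM in JNK WT glands on day 0 and 12.1, 6.90 and 13.0 FPKM on day 3, and at 0.320, 0.312 and 0.351 FPKM in JNK KO glands on day 0 and 1.60, 2.86 and 2.43 FPKM on day 3. Plod2 rose by 3.01 and 0.89 (adjusted p = 2.05e-05 and 0.0332), an interaction of -2.13 ± 0.37 (adjusted p = 0.152). Htra1, a secreted serine protease, rose by 1.86 in JNK WT glands (adjusted p = 2.61e-04) against 0.09 in JNK KO glands (adjusted p = 0.829), an interaction of -1.77 ± 0.34 (adjusted p = 0.170). Cdkn1c, the cell cycle inhibitor p57, was at 0.496, 0.496 and 0.509 FPKM in JNK WT glands on day 0 and 9.21, 7.27 and 7.70 FPKM on day 3, and at 0.526, 0.501 and 0.767 FPKM in JNK KO glands on day 0 and 1.46, 1.58 and 2.26 FPKM on day 3. It rose by 1.41 in JNK WT glands (adjusted p = 0.00257), with a JNK KO change of -0.20 (adjusted p = 0.644) and an interaction of -1.62 ± 0.38 (adjusted p = 0.224). Pkdcc, a secreted tyrosine kinase, had -1.67 ± 0.48 (adjusted p = 0.233), and Sfrp5, a secreted WNT antagonist of fat tissue, -2.90 ± 0.57 (adjusted p = 0.170). As deposited these 7 genes had interactions of -3.66, -3.76, -2.73, -2.49, -2.35, -2.37 and -3.52 in the order named, with adjusted p between 0.0612 and 0.0703.

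Several of the lowest interactions were of genes that striated muscle also uses, and a library property moves with them. Actc1 (cardiac alpha-actin) had -4.24 ± 0.99 (adjusted p = 0.224), Dmpk (a muscle protein kinase) -2.72 ± 0.56 (adjusted p = 0.182), Itga7 (the laminin receptor of muscle fibres) -2.19 ± 0.39 (adjusted p = 0.152) and Lmo7 -2.29 ± 0.43 (adjusted p = 0.170). The summed FPKM of 18 skeletal muscle markers in the test, such as Ckm, Myh4 and Tnnt3, was 1473, 289.5 and 14.4 in JNK WT glands on day 0 and 16459.9, 16737 and 1079.7 on day 3. For JNK KO it was 66.9, 638 and 2017 on day 0 and 19.6, 26.4 and 288 on day 3. All 18 had an interaction below 0, with a median of -7.91, 17 of them at an unadjusted p under 0.05 (6.76% of all genes) and 0 past the adjusted test. The 18 markers are of the same tissue and share the same libraries, so they are not independent results. JNK WT day 3 library 12, whose muscle sum lay within the range of day 0 sums, was above every JNK KO library of day 3 for each of these 4 genes, but for Actc1 (1.07 FPKM) and Dmpk (21.3 FPKM) it was well below the other JNK WT libraries (7.25 and 45.9 FPKM or more). The part of muscle in their values was not tested further. For Slc5a8 and Cyp24a1, named above, its scaled levels of 9.27 and 4.62 FPKM were above every JNK KO library of day 3 and well below the other JNK WT libraries (20.4 and 20.4 FPKM, and 8.28 and 11.05 FPKM). Its muscle sum was itself above those of all JNK KO libraries of that day.

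**Figure D3:**
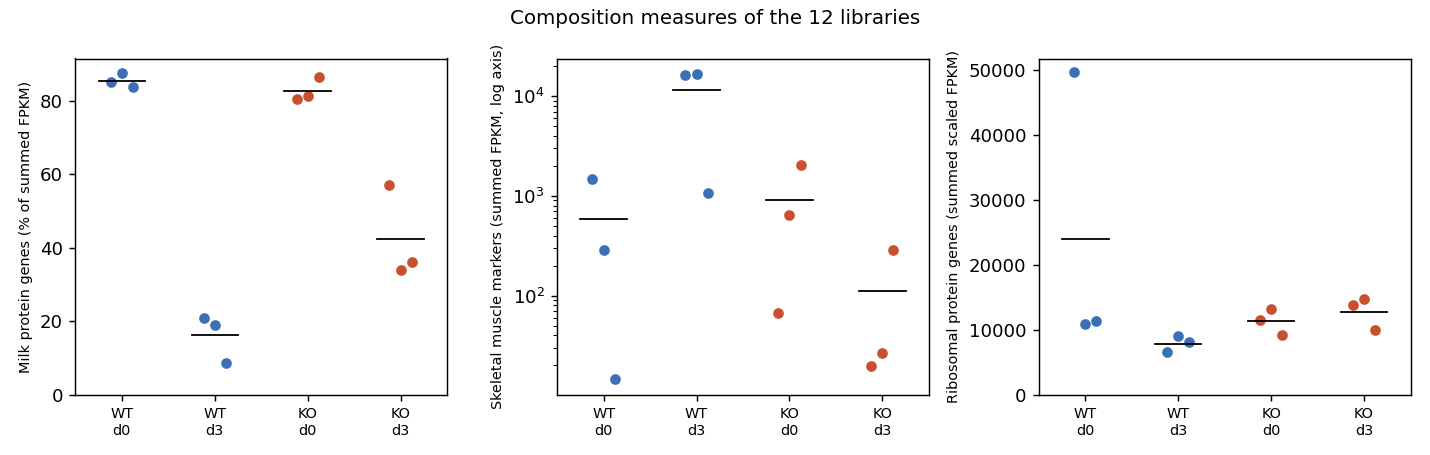
Measures in each of the 12 libraries (points, with the group mean as a line), JNK WT in blue and JNK KO in orange, on day 0 (d0) and day 3 (d3): percent of summed FPKM in 17 milk protein genes, summed FPKM of 18 skeletal muscle markers (log axis) and summed scaled FPKM of 46 ribosomal protein genes. The muscle sum spans 14.4 to 16737 FPKM, and JNK WT day 0 library 1 has a ribosomal protein sum of 49668 against 14737 or less in the other 11 libraries.

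Some of the named genes had a larger change in JNK KO glands. Lipm, a lipase of the acid lipase family, was at 0.0867, 0.0577 and 0.0536 FPKM in JNK WT glands on day 0 and 2.28, 2.72 and 1.73 FPKM on day 3, and at 0.256, 0.109 and 0.0912 FPKM in JNK KO glands on day 0 and 21.5, 16.3 and 13.2 FPKM on day 3. It rose by 1.96 in JNK WT and 4.68 in JNK KO glands (adjusted p = 0.00469 and 4.92e-05), an interaction of 2.72 ± 0.59 (adjusted p = 0.187), with every JNK KO library of day 3 above every JNK WT library. Cpsf4l, named for its departure from the common share, had a JNK WT change of 0.23 (adjusted p = 0.512) and rose by 1.93 in JNK KO glands (adjusted p = 4.84e-04), an interaction of 1.71 ± 0.36 (adjusted p = 0.182). Socs2, a feedback inhibitor of growth hormone and prolactin signalling that STAT5 induces, was at 4.95, 5.23 and 6.92 FPKM in JNK WT glands on day 0 and 17.3, 13.4 and 15.4 FPKM on day 3, and at 6.09, 6.30 and 5.06 FPKM in JNK KO glands on day 0 and 2.91, 3.07 and 3.65 FPKM on day 3. After scaling it fell by 1.06 in JNK WT and by 2.57 in JNK KO glands (adjusted p = 0.00349 and 3.81e-05), an interaction of -1.51 ± 0.30 (adjusted p = 0.179). As deposited the JNK WT change was 1.42 and the JNK KO change -0.84, so the sign of the JNK WT change rests on the scaling while the order of the day 3 groups does not. Gstm2, a glutathione transferase, had a JNK WT change of 0.19 (adjusted p = 0.541) and fell by 1.04 in JNK KO glands (adjusted p = 0.00862), and Epm2a, the glycogen phosphatase laforin that muscle also expresses, likewise had 0.46 (adjusted p = 0.320) and fell by 1.80 (adjusted p = 0.00405).

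Changes that passed the test in both genotypes in opposite directions were rare. After scaling 2379 genes changed the same way in both genotypes, 2769 changed in JNK WT glands alone, 681 in JNK KO glands alone and 5 in opposite directions. A gene called in one genotype alone is not shown to differ between them, and of the 2769 and 681 genes 907 and 180 had an interaction at an unadjusted p under 0.05. As deposited 11501 changed the same way, 1951 in JNK WT glands alone, 282 in JNK KO glands alone and 22 in opposite directions. Pemt, the enzyme that makes phosphatidylcholine from phosphatidylethanolamine, was the best measured of the 5, at 3.03, 1.59 and 2.47 FPKM in JNK WT glands on day 0 and 4.55, 3.55 and 4.98 FPKM on day 3, and at 1.87, 1.503 and 1.19 FPKM in JNK KO glands on day 0 and 16.2, 10.8 and 13.7 FPKM on day 3. Scaled levels fell by 1.54 in JNK WT and rose by 1.35 in JNK KO glands (adjusted p = 0.0114 and 0.0312), an interaction of 2.89 ± 0.55 (adjusted p = 0.170), whereas as deposited Pemt rose by 0.89 and 3.08 (adjusted p = 0.0139 and 1.23e-05). Tmem82, a membrane protein, and Zfp7, a zinc finger protein, also fell in JNK WT glands, by 1.31 and 0.54, and rose in JNK KO glands, by 1.42 and 0.71. Lmo7 rose by 1.15 in JNK WT and fell by 1.14 in JNK KO glands. Igkv4-70, an immunoglobulin kappa variable segment, fell by 3.19 and rose by 3.004, with 1.76, 4.42 and 16.1 FPKM in day 3 libraries of JNK KO. Apol7a, an apolipoprotein L family member, fell by 2.24 in JNK WT glands (adjusted p = 0.00118) and its JNK KO change was 1.11 (adjusted p = 0.0557), an interaction of 3.35 ± 0.53 (adjusted p = 0.109). Of these 6 genes, the change in JNK WT glands of Pemt, Tmem82, Zfp7 and Apol7a was above 0 as deposited, as was the change of Lmo7 in JNK KO glands, so their opposite signs hold only after scaling.

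How much of the JNK WT change was present in JNK KO glands was read from 3028 genes chosen by the average change of both genotypes (adjusted p under 0.01, absolute log2 above 1), a contrast that does not use the interaction. For 1763 genes with an average rise, the JNK KO change was a median of 0.817 times the JNK WT change, with an interquartile range of 0.570 to 1.12. It was smaller than the JNK WT change for 1170 (66.4%), larger for 590 (33.5%) and of opposite sign for 3. For 1265 genes with an average fall the median share was 0.795 (0.611 to 1.02), smaller for 920 (72.7%), larger for 343 (27.1%) and opposite for 2. Of the rising genes 247 had a smaller and 72 a larger JNK KO change at an unadjusted p under 0.05, and of the falling genes 232 and 17. Changes correlated across the 3028 genes at a Pearson r of 0.908, with genes that share libraries and are not independent. Choosing genes by a large average of the same 2 changes raises this value, which was 0.617 over all 14512 genes. A total least squares line through 0 over the 3028 genes had a slope of 0.831. Ordinary least squares through 0 gave 0.768 for JNK KO on JNK WT changes and 1.08 for JNK WT on JNK KO changes. The slope of 0.831 came from these same data and was taken as fixed, so the test against it leaves out its uncertainty. A low count of calls therefore does not show that the share is common. When each gene's JNK KO change was tested against 0.831 times its JNK WT change, 0 genes were called higher (0% of those tested) and 1 lower (0.00689%), Gm25596, with 1616 genes at an unadjusted p under 0.05. With array weights 214 were called higher and 337 lower. After scaling the smallest p toward a high value belonged to genes already described, Defb1, Aqp3, Apol7a and Tmem54 (adjusted p = 0.167 for each). With deposited values, whose own slope was 0.730, 7 were called higher (0.0482%) and 2 lower (0.0138%). The higher ones were Lipm, Pemt, Apol7a, Gm13381 and, outside the rule for named genes and chosen after their values were seen, Ccdc11, Rnf183 and Hsd17b2, and the lower ones Socs2 and Gm25596. Apart from Gm25596 their adjusted p lay between 0.0160 and 0.0467. The share of the rising genes moved with the strength asked for and with several libraries. Among 443 rising genes with an average log2 change above 2 it was 0.908, and among 396 falling genes 0.819. The share of the rising genes was 0.927 without JNK WT day 3 library 12, 0.903 without JNK KO day 0 library 1, 0.877 without JNK KO day 3 library 3 and 0.765 without JNK WT day 0 library 2.

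**Figure D4:**
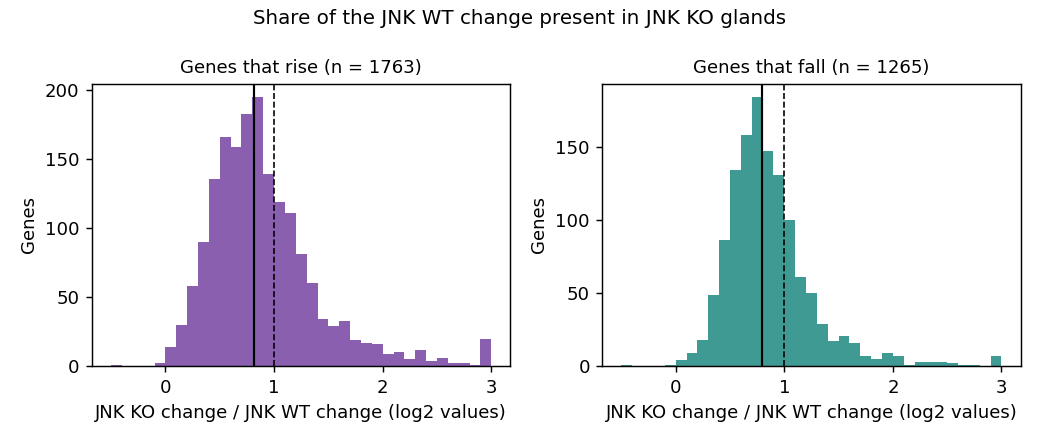
Number of genes by the ratio of the JNK KO to the JNK WT change (log2 values, scaled), for 1763 genes with an average rise and 1265 with an average fall. The solid lines mark the medians of 0.817 and 0.795, the dashed lines mark equal change, and ratios beyond the axis are drawn in the end bins.

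The same question was asked of gene lists ordered by their role in involution, each given as counts and a median beside the median of -0.00 over all genes tested, with no test of the list. No member of any of the 46 lists passed the adjusted test for the interaction. Milk protein genes had the highest median, 2.49, with 16 of 17 above 0 and 8 higher at an unadjusted p under 0.05 (6.19% of all genes). Of the 17, 14 fell in JNK WT and 9 in JNK KO glands, with median changes of -5.08 and -2.45. Among them Pip, a secreted glycoprotein, had 5.77, Glycam1, a mucin-like whey protein, 4.64, and Wap, the whey acidic protein whose promoter drives Cre, 3.54, while the caseins Csn1s1, Csn2 and Csn3 had 2.09, 2.42 and 1.30. Of 22 genes for the transport of ions, sugars and water into milk, 18 were above 0 (median 0.83), among them Folr1, the folate receptor, at 2.26. Without JNK WT day 3 library 12 the milk protein median was 1.87. Fatty acid and triglyceride synthesis, which serves milk fat, had a median of -0.06 over 24 genes that went both ways, from -2.19 to 3.84. Of them 16 fell in JNK WT and 19 in JNK KO glands, with median changes of -2.27 and -2.49. As deposited 4 fell and 7 rose in JNK WT glands, and 8 fell and 2 rose in JNK KO glands. The deposited median interaction was -0.79, against -0.67 over all genes. Leaving out each library moved the scaled median between -0.54 and 0.23. Of 20 cholesterol synthesis genes 17 fell in JNK WT and 13 in JNK KO glands, but as deposited 2 fell and 7 rose in each. Their median interaction was 0.54, and 0.22 without JNK KO day 3 library 3.

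Lists for the signals that start and sustain involution had medians from -0.28 to 0.44, and no member passed the adjusted test. Of 16 LIF, OSM and STAT3 genes, 7 rose in JNK WT and 6 in JNK KO glands, with a median interaction of -0.28. The 19 acute phase genes had median changes of 2.93 and 3.33, with 12 and 13 rising, and a median interaction of 0.44, which was -0.29 as deposited and moved between 0.24 without JNK KO day 0 library 2 and 1.14 without JNK KO day 0 library 1. The 9 prolactin and STAT5 genes had a median of -0.11, with Socs2 at -1.51 and Elf5, a transcription factor of alveolar cells, at 1.42 ± 0.39 (adjusted p = 0.227). BCL2 family and death receptor genes had medians of 0.03 and 0.18. AP1-related genes, some of whose products JNK phosphorylates, had a median of -0.07 over 12 genes, 5 above and 7 below 0 and none at an unadjusted p under 0.05. Jun was at 1.13, 1.43 and 1.997 FPKM in JNK WT glands on day 0 and 26.4, 27.4 and 43.1 FPKM on day 3, and at 0.753, 0.700 and 2.01 FPKM in JNK KO glands on day 0 and 4.32, 7.79 and 12.2 FPKM on day 3. On day 3 the JNK KO libraries were all below those of JNK WT. Jun rose by 1.87 in JNK WT glands (adjusted p = 0.00305), its JNK KO change was 1.04 (adjusted p = 0.0680) and the interaction -0.83 ± 0.52 (adjusted p = 0.519). Atf3, a stress-induced factor, had -0.74 ± 0.86 (adjusted p = 0.721), Fosl2 -0.11 ± 0.47 (adjusted p = 0.932) and Jund -0.13 ± 0.40 (adjusted p = 0.902), and as deposited these 4 interactions were -1.58, -1.55, -0.80 and -0.85. Socs3, the STAT3-induced feedback inhibitor, had 0.31 ± 0.85 (adjusted p = 0.887), and the BH3-only genes Bcl2l11, Bik and Bnip3 had -0.55, -0.06 and -0.37. Serpina3g, a protease inhibitor, had 0.20. Mapk8 and Mapk9 are read over the whole gene, and exons outside the deleted part and cells without Cre add to their values. Mapk8 was at 1.95, 2.33 and 2.65 FPKM in JNK WT glands on day 0 and 7.37, 6.57 and 7.90 FPKM on day 3, and at 0.986, 0.965 and 2.78 FPKM in JNK KO glands on day 0 and 1.25, 3.57 and 2.79 FPKM on day 3. Its interaction was -0.16 ± 0.54 (adjusted p = 0.909), with day 0 libraries that overlapped between genotypes and day 3 libraries that did not. Mapk9 was at 2.48, 9.04 and 10.2 FPKM in JNK WT and 4.86, 4.33 and 8.78 FPKM in JNK KO glands on day 0, and at 18.1, 16.1 and 17.8 FPKM and 5.26, 10.5 and 10.03 FPKM on day 3, with an interaction of -0.24 ± 0.48 (adjusted p = 0.840).

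Matrix remodelling genes mostly lay below 0. Of 17 metalloproteinase and inhibitor genes 13 were below 0 (median -0.93) and 4 were lower at an unadjusted p under 0.05 (6.76% of all genes). Mmp2, gelatinase A, was at 0.466, 2.50 and 2.54 FPKM in JNK WT glands on day 0 and 41.5, 48.0 and 127 FPKM on day 3, and at 3.88, 2.05 and 2.71 FPKM in JNK KO glands on day 0 and 8.34, 17.7 and 33.3 FPKM on day 3. It rose by 2.91 in JNK WT glands (adjusted p = 0.00168), its JNK KO change was 0.82 (adjusted p = 0.294), and the interaction was -2.09 ± 0.73 (adjusted p = 0.297). JNK WT day 3 library 12 was the highest of its group for Mmp2, as for most metalloproteinases. Mmp14, the membrane-bound activator of Mmp2, had -1.53 ± 0.66 (adjusted p = 0.367), Mmp3 (stromelysin 1) -1.44 ± 1.16 (adjusted p = 0.603), Mmp11 (stromelysin 3) -1.56 ± 1.004 (adjusted p = 0.524) and Mmp9 (gelatinase B) -1.44 ± 0.65 (adjusted p = 0.381). Mmp12, of macrophages, had -1.11 ± 1.02 (adjusted p = 0.647), Mmp15 -1.05 ± 0.58 (adjusted p = 0.465) and Mmp13 -0.15 ± 0.51 (adjusted p = 0.913), and the inhibitor Timp3 had -1.72 ± 0.65 (adjusted p = 0.309) against 0.02 ± 0.57 (adjusted p = 0.994) for Timp2. Lysosomal genes, 35 in all, had a median of -0.27. Ctsl, cathepsin L, was at 31.6, 39.6 and 45.8 FPKM in JNK WT glands on day 0 and 491, 626 and 565 FPKM on day 3, and at 51.9, 40.7 and 47.3 FPKM in JNK KO glands on day 0 and 153, 229.6 and 279 FPKM on day 3. It rose by 1.35 in JNK WT glands (adjusted p = 7.22e-04), and its JNK KO change was 0.42 (adjusted p = 0.172) with an interaction of -0.92 ± 0.29 (adjusted p = 0.270). Ctsb, cathepsin B, had -0.69 ± 0.29 (adjusted p = 0.343). After scaling 14 of 21 collagen genes rose in JNK WT and 6 in JNK KO glands, against 21 and 20 as deposited, with 18 interactions below 0 and a median of -0.65. Of 28 fibroblast and matrix genes 21 were below 0 (median -0.47). Without the 2 JNK WT libraries that stood apart, the collagen median was 0.40 and the fibroblast and matrix median 0.00, so neither was below 0 without them, while the metalloproteinase median was -0.65, and -0.48 without JNK KO day 3 library 3. Scaling to a common total without milk genes gave lysosomal genes a median of 0.09, with 0.34 over all genes.

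White adipocyte genes lay mostly below 0. Of 30 white adipocyte genes 27 had an interaction below 0, with a median of -1.21, and 13 were lower at an unadjusted p under 0.05 (6.76% of all genes). In JNK WT glands 18 rose (19.1% of all genes) and 4 fell (16.4%), with a median of 1.64. In JNK KO glands 2 rose (11.3%) and 4 fell (9.87%), with a median of 0.09. That contrast in counts rests on the scaling, since as deposited 26 of the 30 rose in each genotype (91.5% and 80% of all genes), with medians of 4.01 and 1.84. The summed scaled FPKM of the 30 genes was 2660 to 4521 and 2661 to 3317 in JNK WT and JNK KO glands of day 0, and 3436 to 5622 and 1815 to 2986 on day 3, so the genotypes overlapped on day 0 and not on day 3. Pck1, which makes glycerol for triglyceride, had -3.10, Car3, a carbonic anhydrase of fat and muscle, -2.85, Plin4 and Plin1, coats of the lipid droplet, -2.84 and -2.16, Slc2a4, the insulin-responsive glucose carrier of fat and muscle, -2.64, and Dgat2, which completes triglyceride synthesis, -2.10. Adipoq, the adipokine adiponectin, had -1.24 and Lep, leptin, 0.04. Thrsp, a lipogenic factor that the lactating gland also uses, had 1.25. Leaving out each library in turn moved the median between -1.49 and -0.95. Of 22 macrophage genes 21 rose in JNK WT and 17 in JNK KO glands, with medians of 2.46 and 1.99, and 20 interactions were below 0 (median -0.52, -0.25 without JNK WT day 3 library 12). C1qa and C1qb, complement subunits made by macrophages, had -0.02 and 0.04, whereas Trem2 and Gpnmb, of lipid-laden phagocytes, had -2.30 and -2.05. All 7 mast cell genes tested rose in JNK WT (19.1% of all genes) and 0 in JNK KO glands (11.3%), where their median change was 0.43. These counts alone do not show that the changes differed between genotypes. The median interaction of the 7 was -0.98, the protease Cpa3 at -0.98. At an unadjusted p under 0.05, 2 of the 7 were lower (6.76% of all genes), and the smallest adjusted p of an interaction was 0.299. As deposited all 7 rose in both genotypes, with a median change of 1.74 in JNK KO glands.

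Other lists lay above 0. Of 24 luminal epithelial genes 19 were above 0 (median 0.57, and 0.21 without JNK WT day 0 library 2). Of 24 interferon-stimulated genes 20 were above 0 (median 0.65), with 8 higher at an unadjusted p under 0.05 (6.19% of all genes). Of the interferon-stimulated genes 17 rose in JNK WT and 21 in JNK KO glands, against all 24 in both as deposited, and the JNK KO change was higher for 20 after scaling, such as Isg15, a ubiquitin-like protein, at 1.70, Cxcl10, a T cell chemokine, at 1.58 and Usp18 at 1.55. Without JNK KO day 3 library 3 that median was 0.38. Cell cycle genes had a median of 0.58, 0.32 without JNK WT day 0 library 3. All 46 cytosolic ribosomal protein genes and all 26 proteasome genes were above 0, with medians of 1.43 and 0.52, but without JNK WT day 0 library 1 these were 0.77 and 0.20. As deposited the medians of the luminal and interferon lists were -0.10 and -0.02, against -0.67 over all genes. Housekeeping genes also lay above 0 after scaling, 11 of 16 with a median of 0.37. So did 17 of 26 endoplasmic reticulum stress genes (median 0.30). A median above 0 was thus not particular to the lists named here.

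**Figure D5:**
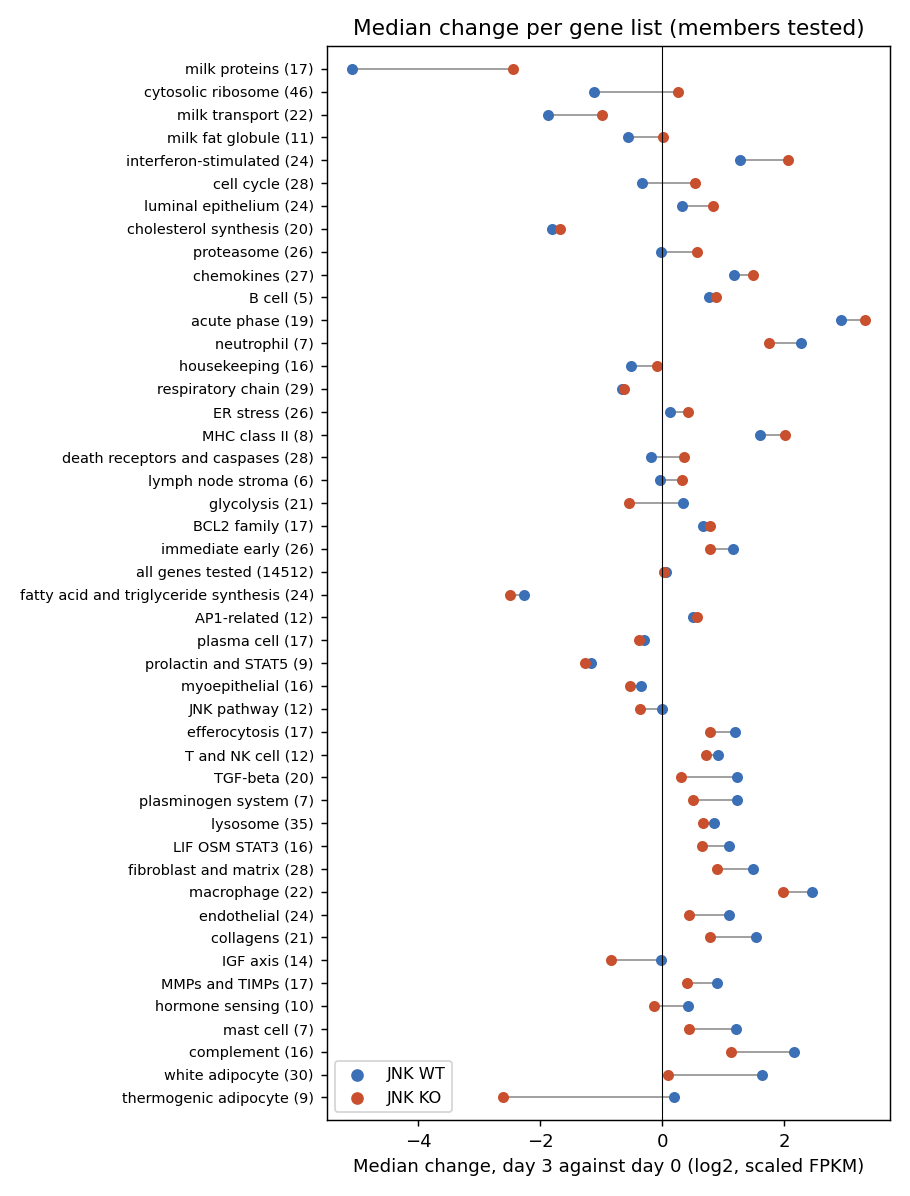
Median log2 change of scaled FPKM from day 0 to day 3 over the tested members of 45 gene lists and over all genes tested, JNK WT in blue and JNK KO in orange, sorted by the median interaction, with the number of members tested in brackets. Milk proteins (-5.08 and -2.45) and white adipocyte genes (1.64 and 0.09) lie far apart between genotypes, and skeletal muscle is left out because its medians of 2.82 and -5.06 would set the scale.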

How the data were processed

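Whole glands were flash frozen, RNA was purified on RNeasy columns, libraries were made on an Illumina NeoPrep instrument and paired ends were read on a NextSeq500. The authors trimmed reads with Trimmomatic, aligned them with Bowtie2 and TopHat2 (2.0.14) to mouse GRCm38 with Ensembl genes, and obtained the deposited FPKM per gene and library with Cufflinks (2.2.1). A further block of the table, the Cuffdiff p-values, q-values and fold changes of the authors between the days in JNK WT glands, was not used. FPKM carry no read counts, so the depth of each library and its counting error are unknown. Of 37756 gene models 2 had no FPKM, 24 symbols had been turned into dates by a spreadsheet and 466 were merged models, and 34204 (90.6%) matched GENCODE M21 by name. Column names give the group but not the numbered sample of the labels.

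Values were taken as log2(FPKM + 0.1), which understates changes of low genes, for genes of at least 0.5 FPKM in at least 3 libraries. limma (3.58.1, R 4.3.3) fitted 4 group means with a mean-variance trend (8 residual degrees of freedom), two-sided, with Benjamini-Hochberg adjustment over all 14512 genes, as deposited and after median ratio scaling. P-values rest on the spread between the 3 mice or libraries within groups, pooled over all 4 groups and moderated across genes. The spread within any group therefore enters every contrast. An exact permutation test of 3 against 3 cannot go below 0.1. The code was tested on simulated data. Named genes are those with the 10 smallest p in each direction in each fit or against the common share (at most 15 where 5 or more passed), with a mean of at least 1 FPKM and without clone-only names or merged models, genes changed in opposite directions, list members by level, and genes the study named. The text gives a selection of them. A few genes are not reported here. The members, the 46 lists and the tests were chosen with earlier results of these data known. Alternatives covered the pseudocount, filter, trend, weights, moderation, threshold, scaling and each library left out.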

Additional observations from a re-analysis of the deposited data

Results flagged for a closer look

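Of all genes tested, 2 models passed the interaction test of limma, which compares the changes of the genotypes. For Gm25596, which met the filter only through the 3 libraries where it was above 0 and so had to differ, the interaction was -7.74 as deposited (adjusted p = 4.15e-05) and -8.69 after median ratio scaling (adjusted p = 3.31e-05), with FPKM above 0 in all 3 JNK KO libraries of day 0 and in 0 of the other 9. For Gm13381 it was 3.85 as deposited (adjusted p = 0.0166) and 4.19 after scaling (adjusted p = 0.0165), with all 3 JNK KO libraries of day 3 above all 3 of JNK WT. That separation follows in part from picking Gm13381 by its p in these data. Groups of 3 libraries were not tested for outlying values. For neither model was a cause tested.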

How the results depend on the processing

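No paired analysis was possible because nothing ties the library numbers of the deposited columns to the numbered samples. The count of genes called for the interaction was 2 as deposited. It was 1 at an adjusted p under 0.01 with an absolute log2 above 1, 400 with a pseudocount of 1 (27 higher, 373 lower), 19 with no filter, 11 with a filter of 1 FPKM in every library of 1 group, 11 with no trend, 168 with array weights, and 442 without JNK WT day 0 library 1 and day 3 library 12 (30 higher, 412 lower). Leaving out each library gave 1 to 304 genes, the most without JNK WT day 3 library 12. After median ratio scaling, also 2, it was 1 at the stricter threshold and with a common total without milk genes, 6 with no filter (4 higher, 2 lower), 645 with array weights, 5 with quantile normalization (4 higher, 1 lower), 164 without the 2 libraries and 1 to 14 without each library. Changes of single genotypes depended on the scaling, with 13474 genes in JNK WT and 11805 in JNK KO glands as deposited against 5153 and 3065 after scaling, of which 2778 and 1633 were higher. Departures from the common share, 1 gene, became 4 with a pseudocount of 1, 6 with no filter, 3 with no trend, 551 with array weights and 1 to 5 without each library.

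The share of the JNK WT rise in JNK KO glands was 0.817. It was 0.724 as deposited, 0.868 as a total least squares slope, 0.908 for average changes above 2, 0.912 without the 2 libraries and 0.765 to 0.927 without each library. The share of the fall, 0.795, was 0.905 as deposited and 0.760 to 0.850 without each library. The difference in milk share on day 3, 26.3 percentage points, was 16.6 over all gene models, shorter ones included, and 19.0 to 30.5 without each library.

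Of 141 named genes, most of them list members chosen by level and given with no test, 59 had an interaction whose sign turned under some alternative. Of the 60 with a test in each setting these were 10, none of them past it. As deposited these were Fosl2 (0.081 with array weights), Socs3 (0.30 with array weights, 0.31 after scaling, 0.14 without the 2 libraries, -1.06 to 0.30 without each library), Timp2 (0.016 after scaling) and Serpina3g (0.20 after scaling, -1.17 to 0.42 without each library). After scaling, array weights gave 0.37 for Fosl2, -0.34 for Timp2, -0.065 for Serpina3g and 0.21 for Mapk9. A common total without milk genes gave 0.25 for Fosl2, 0.12 for Mapk9, 0.23 for Jund, 0.14 for Mmp13, 0.22 for Bik and 0.18 for Mapk8. Timp2 was -0.14 with the 75th percentile, -0.13 with a total that also leaves out antigen receptor segments and -0.55 with quantile normalization, which gave 0.29 for Mmp13 and 0.10 for Bik. Without the 2 libraries Fosl2 was 0.11, Timp2 -0.40, Serpina3g -0.41 and Mapk9 0.076. Without each library Fosl2 ranged from -0.40 to 0.29, Timp2 -0.50 to 0.35, Serpina3g -0.56 to 1.09, Mapk9 -0.45 to 0.13, Jund -0.41 to 0.14, Mmp13 -0.50 to 0.14, Bik -0.38 to 0.27, Bnip3 -1.04 to 0.10, Socs3 -0.43 to 1.07 and Mapk8 -0.43 to 0.31. List medians near 0 also turned, such as LIF and STAT3 (-0.28, but 0.12 with array weights) and AP1 (-0.07, but 0.15). The adjusted p of Gm13381 was 0.0946 with a pseudocount of 1 and 0.148 with a total without milk genes after scaling, and 0.0566 to 0.0998 as deposited without each of 5 libraries that ended its call (JNK WT day 0 library 2 and day 3 library 6, JNK KO day 0 libraries 1 and 2 and day 3 library 3). Except where a construction shows it, as with fewer libraries or genes, the cause was not tested.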

Other observations

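Some gene lists not yet described had low medians, with no member past the adjusted test. Of 16 complement genes 14 rose in JNK WT and 6 in JNK KO glands after scaling, against all 16 in both as deposited, and 13 interactions were below 0 (median -0.99, and -0.59 without JNK WT day 0 library 1 and day 3 library 12). The classical pathway proteases C1s and C1ra had -1.51 ± 0.48 (adjusted p = 0.270) and -1.44 ± 0.49 (adjusted p = 0.283), whereas Cd55, an inhibitor of complement on cell surfaces, had 1.03 ± 0.45 (adjusted p = 0.367). The same genes are also expressed in stroma, so their source in whole tissue was not tested. Of 10 genes of hormone-sensing luminal cells 9 were below 0 (median -0.93, and -0.60 without JNK WT day 0 library 1), with the transcription factor Tbx3 at -1.66 ± 0.50 (adjusted p = 0.250) and the oestrogen receptor Esr1 at -1.27 ± 0.41 (adjusted p = 0.273).

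Of 9 genes of heat-producing fat 6 were below 0 (median -1.69). Ppargc1a, a coactivator of mitochondrial genes, had -3.67 ± 1.01 (adjusted p = 0.226) and Prdm16, a regulator of brown fat identity, -1.69 ± 0.56 (adjusted p = 0.282), while Cidea, which the lactating gland uses for milk lipid, had 1.82 ± 0.49 (adjusted p = 0.226). Muscle also expresses several of these genes, such as Cox7a1, and the muscle sums given above move with the groups. Of 14 genes of the insulin-like growth factor axis 10 were below 0 (median -0.88), among them Igf2 at -2.26 ± 0.64 (adjusted p = 0.233), Igf1r, the receptor, at -1.41 ± 0.46 (adjusted p = 0.275) and Igfbp5, a binding protein that epithelium secretes during involution, at -1.59 ± 0.83 (adjusted p = 0.445). Igfbp5 rose by 6.43 in JNK WT and by 4.84 in JNK KO glands. Its scaled day 3 levels were close, at 327, 378 and 333 FPKM in JNK WT and 311, 262 and 326 FPKM in JNK KO glands. The difference between the rises thus lay mainly on day 0, where the genotypes overlapped. Scaled day 0 levels were 8.74, 5.34 and 23.3 FPKM in JNK KO glands and 8.36 FPKM or less in JNK WT glands. The lowest was in JNK WT day 0 library 1, which stood apart. Without the 2 JNK WT libraries that stood apart the median of this list was -0.14, and -0.12 without day 0 library 1 alone.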
